A study of Mus musculus with 6 samples.

Results

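The 39 genes examined here encode enzymes of cholesterol and fatty acid synthesis, the SREBP transcription factors that control them, and proteins that move or remove cholesterol. They were taken by gene symbol from a written list. All 39 were among the 22000 symbols of the count table, and all 39 had at least 1 CPM (read counts scaled to the library total) in every mouse of a group, as did 13185 genes in all. RNA was from the prefrontal cortex (PFC) of male C57BL/6N mice at 9 weeks of age, with 1 library per mouse. The 3 control mice had been co-housed with other males after weaning, and the 3 early life stress (ELS) mice had been housed singly after weaning (social isolation), in cages with a filter cap that control cages lacked. Per the study's methods both groups came from litters of the same mother, so the p-values below cover the spread between these mice only. Which mice shared a litter or a cage is not given in the sources used here. Total counts ran from 28405795 to 35241743 per mouse, and each of the 3 ELS libraries had more counts than any control library.

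SREBPs are made as inactive precursors in the membrane of the endoplasmic reticulum. When sterols are scarce, SCAP escorts them to the Golgi, where they are cut and released to the nucleus. When sterols are plentiful, INSIG proteins hold SCAP back. The adult brain makes its own cholesterol because lipoproteins hardly cross the blood-brain barrier. Astrocytes and myelin-forming oligodendrocytes make much of it, and neurons dispose of excess cholesterol by hydroxylation.

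SREBPs bind a sterol regulatory element, usually beside sites for the general factors NF-Y (CCAAT) and Sp1 (GGGCGG). RefSeq promoter windows of 300 bases on GRCm38, most of them upstream of the gene start, were found for 31 of the 39 genes. Fdps, Fdft1, Sqle, Stard4, Abcg1, Scd1, Scd2 and Fads1 had no window and were not searched. These motifs and 1 more were searched on both strands, and their letters can overlap. The letters TCACNCCAC, a form of the sterol regulatory element, were found for 1 of the 31 genes, Hmgcs1 (3.23%, against 1.45% of the 9935 tested genes with a window). CCAAT was found for 24 of 31 genes (77.4%, against 42.7% of tested genes). GGGCGG was found for 26 of 31 (83.9%, against 69.9%), and the E-box CACGTG, which SREBP-1 can also bind, for 7 of 31 (22.6%, against 11.6%). A gene with several windows counted on a match in any of them. Per window, the shares over the 40 windows of these genes were 2.5% for TCACNCCAC, 62.5% for CCAAT, 77.5% for GGGCGG and 20.0% for CACGTG, against 1.24%, 37.4%, 35.7% and 7.15% of all 32851 windows. The 32851 windows include those of genes that were not tested, unlike the shares per gene above. Per gene, GGGCGG was found for 38.2% of all genes with a window, against 69.9% of tested genes. A match is a run of letters and not a measured binding site.

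The windows of 5 genes are shown, with matches to the motifs in capitals (GGGCGG and CCAAT also as their complements CCGCCC and ATTGG). Hmgcs1 is shown as the gene with the sterol element (first base at position -137 from the gene start). The other 4 are those singled out below by an unadjusted p-value or by groups that did not overlap. Hmgcs1 lies on chr13:119690101-119690400 (plus strand), Mvk on chr5:114444019-114444318 (plus strand), Hsd17b7 on chr1:169969156-169969455 (minus strand), Elovl7 on chr13:108214154-108214453 (plus strand) and Elovl6 on chr3:129532136-129532435 (plus strand). The Mvk window held CCAAT 5 times and GGGCGG 2 times, the Hsd17b7 window held CCAAT 3 times, GGGCGG 3 times and the E-box, the Elovl7 window held GGGCGG 3 times, and the Elovl6 window held none of the motifs.
Hmgcs1: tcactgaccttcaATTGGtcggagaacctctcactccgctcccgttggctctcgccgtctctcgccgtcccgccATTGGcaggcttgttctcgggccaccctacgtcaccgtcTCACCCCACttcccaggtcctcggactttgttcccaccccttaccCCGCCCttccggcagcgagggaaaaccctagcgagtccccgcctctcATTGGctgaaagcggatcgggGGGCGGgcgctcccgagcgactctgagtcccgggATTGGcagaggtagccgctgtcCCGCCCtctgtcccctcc
Mvk: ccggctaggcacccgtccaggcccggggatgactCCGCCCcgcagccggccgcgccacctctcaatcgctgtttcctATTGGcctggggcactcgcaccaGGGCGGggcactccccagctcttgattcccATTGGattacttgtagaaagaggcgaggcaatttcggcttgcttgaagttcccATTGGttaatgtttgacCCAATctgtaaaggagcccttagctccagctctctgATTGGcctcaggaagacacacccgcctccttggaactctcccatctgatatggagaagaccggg
Hsd17b7: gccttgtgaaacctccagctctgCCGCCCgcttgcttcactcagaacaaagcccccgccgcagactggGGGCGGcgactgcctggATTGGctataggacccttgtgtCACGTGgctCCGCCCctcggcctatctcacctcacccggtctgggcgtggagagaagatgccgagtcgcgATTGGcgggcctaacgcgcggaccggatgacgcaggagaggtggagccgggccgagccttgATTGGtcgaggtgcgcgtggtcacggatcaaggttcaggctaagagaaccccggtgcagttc
Elovl7: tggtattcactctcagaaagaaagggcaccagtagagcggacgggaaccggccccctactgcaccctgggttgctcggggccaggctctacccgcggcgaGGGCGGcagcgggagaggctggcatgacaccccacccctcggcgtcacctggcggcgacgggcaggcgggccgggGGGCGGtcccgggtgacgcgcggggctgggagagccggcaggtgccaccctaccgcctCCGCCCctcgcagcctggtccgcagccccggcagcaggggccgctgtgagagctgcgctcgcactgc
Elovl6: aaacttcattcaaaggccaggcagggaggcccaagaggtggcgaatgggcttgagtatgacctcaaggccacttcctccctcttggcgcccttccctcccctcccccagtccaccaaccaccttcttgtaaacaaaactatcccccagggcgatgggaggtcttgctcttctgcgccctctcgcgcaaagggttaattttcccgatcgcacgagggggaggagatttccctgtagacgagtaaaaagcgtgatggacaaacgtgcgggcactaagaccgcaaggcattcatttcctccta

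To ask whether ELS altered these genes, the groups were compared across all 13185 genes with edgeR's quasi-likelihood test. No gene of the 39 was called a differentially expressed gene (DEG), a call made where the adjusted p (Benjamini-Hochberg) was under 0.05 and the log2 fold change was above 0.3 or below -0.3. Of all genes tested, 0.0152% were called. The adjusted p was 0.99998 for each of the 39 in edgeR's quasi-likelihood test, and DESeq2, the edgeR likelihood ratio test and limma-voom also called 0 of them. The log2 fold changes ran from -0.20 to 0.25 with a median of -0.022, against a median of -0.0046 over all genes tested. Of the 39, 13 had values above 0 and 26 below 0, while 47.5% of all genes tested were above 0. With a mouse left out, the number above 0 ran from 9 (without ELS mouse 3) to 19 (without control mouse 1).

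For 35 of the 39 genes, the 95% confidence interval of the log2 fold change lay wholly between -0.3 and 0.3, which corresponds to 0.812-fold and 1.23-fold. Of the genes of the same range of CPM, 7895 of 9845 had such an interval, and of all genes tested, 8101 of 13185. The interval extended past that range for Mvk, Mvd, Elovl6 and Elovl7. The median half-width of the interval was 0.161 for the 39 genes, 0.176 for genes of that range and 0.195 for all genes tested. The median coefficient of variation between mice of a group was 5.44% for the 39 genes and 6.30% for the 9845 genes of the same range of CPM.

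**Figure D1:**
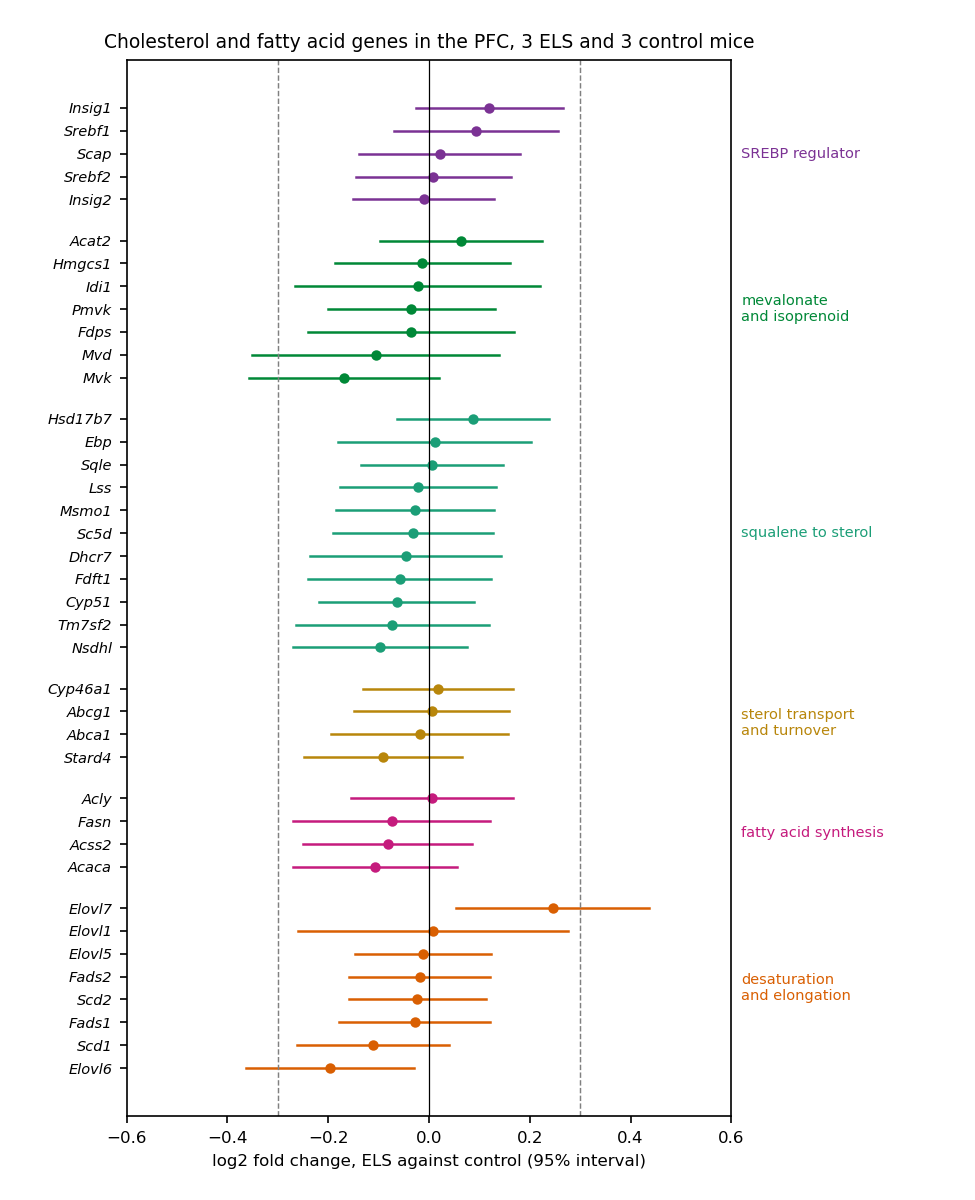
Log2 fold change of ELS against control mice for each of the 39 genes (points) with its 95% interval (lines), by role, with dashed lines at -0.3 and 0.3. All points lie between the dashed lines, and the intervals of Elovl7 and Elovl6 are the ones that do not reach 0.

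At an unadjusted p under 0.05, 1 of the 39 genes was higher in ELS mice (2.56%, against 1.89% of all genes tested) and 1 was lower (2.56%, against 2.34%). Groups did not overlap in 2 genes that were higher (5.13%, against 3.81%) and 1 that was lower (2.56%, against 4.47%). These shares were near those of all genes. The genes were the elongases Elovl7 and Elovl6 for the p-value, and Elovl7, Hsd17b7 and Mvk for the lack of overlap.

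Elovl7 encodes an elongase that lengthens fatty acids to very long chains. It had 17.3, 16.0 and 18.4 CPM in control mice 1 to 3 and 21.7, 19.8 and 19.9 CPM in ELS mice 1 to 3. Every ELS mouse was above every control mouse. The log2 fold change was 0.25 (95% interval from 0.054 to 0.44), or 18.6% higher, with an unadjusted p of 0.0162 and an adjusted p of 0.99998 in edgeR's quasi-likelihood test. With each mouse left out it ran from 0.20 to 0.29, and its unadjusted p stayed under 0.05 in 4 of those 6 fits. Without control mouse 3 and ELS mouse 1, which had the highest sums of striatal marker genes in their groups, it was 0.25. The sum of 9 oligodendrocyte marker genes was 6507, 6660 and 8526 CPM in control mice, against 7594, 6546 and 7137 CPM in ELS mice, so it overlapped between groups. Its part in the Elovl7 difference was not tested.

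Elovl6 encodes the elongase that turns palmitate into stearate. It had 65.9, 64.2 and 58.5 CPM in control mice, against 54.4, 59.1 and 50.9 CPM in ELS mice. ELS mouse 2 lay above control mouse 3, so the groups overlapped. The log2 fold change was -0.20 (95% interval from -0.36 to -0.029), a difference of -12.7%, with an unadjusted p of 0.0252 and an adjusted p of 0.99998 in edgeR's quasi-likelihood test. It ran from -0.26 to -0.15 with each mouse left out, and its unadjusted p stayed under 0.05 in 2 of those 6 fits. An antisense gene covers 0.529% of its exon length. The values of the 2 elongases thus lay in opposite directions, and neither difference passed the correction.

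**Figure D2:**
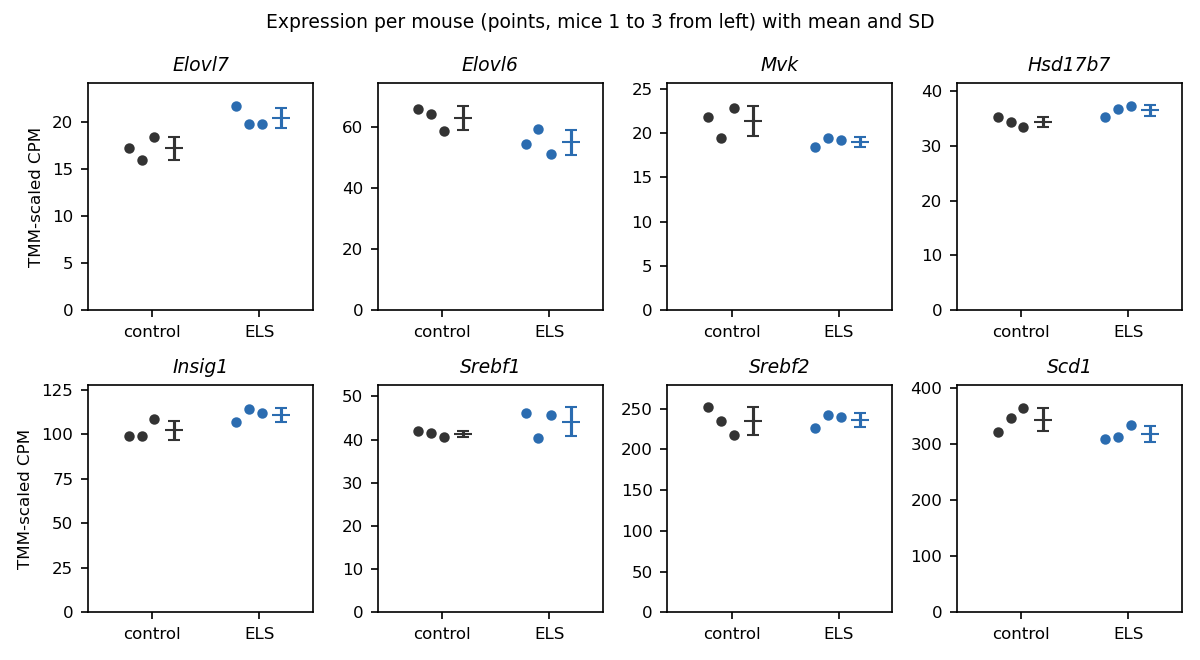
TMM-scaled CPM (y axes from 0) of 8 genes in each of the 3 control and 3 ELS mice (points), with the mean and SD of the group. The ELS points of Elovl7 lie above all control points (19.8 CPM or more against 18.4 or less), and the groups overlap for Elovl6, Insig1, Srebf1, Srebf2 and Scd1.

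Among the regulators of the pathway, Srebf1, which encodes SREBP-1, the main activator of fatty acid genes, had 42.0, 41.4 and 40.6 CPM in control mice, against 46.2, 40.3 and 45.8 CPM in ELS mice. ELS mouse 2 was the lowest of the 6, although the other two ELS mice were the highest. The log2 fold change was 0.093 (95% interval from -0.069 to 0.26), and it was 0.055 without ELS mouse 1 and 0.15 without ELS mouse 2. Srebf2 encodes SREBP-2, the main activator of cholesterol genes, and had 252, 235 and 218 CPM in control mice, against 226, 242 and 240 CPM in ELS mice. Its log2 fold change of 0.0088 (95% interval from -0.15 to 0.16) came with ELS values that all lay within the range of the control values.

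Scap, the sterol-sensing escort, had 92.4, 90.8 and 80.5 CPM in control mice, against 84.4, 92.6 and 90.6 CPM in ELS mice. The groups overlapped, with a log2 fold change of 0.021. An unclassified transcript of the opposite strand covers 13.2% of its exon length. Insig1, itself an SREBP target, had 99.0, 98.9 and 108 CPM in control mice, against 107, 114 and 112 CPM in ELS mice. Only control mouse 3 reached into the ELS range. The log2 fold change was 0.12 (95% interval from -0.026 to 0.27, unadjusted p of 0.0997 in the quasi-likelihood test), and without control mouse 3 it was 0.16. Insig2, whose gene is less responsive to SREBPs, had 57.6, 54.7 and 57.7 CPM in control mice, against 56.3, 55.2 and 57.2 CPM in ELS mice. Its groups overlapped, with a log2 fold change of -0.010.

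Of the 7 genes from acetyl-CoA to farnesyl diphosphate, 6 had log2 fold changes below 0, and their median was -0.035. Without control mouse 3, 3 of the 7 were below 0 and the median was 0.011, while without control mouse 2 it was -0.12. Mvk encodes mevalonate kinase and had 21.8, 19.44 and 22.8 CPM in control mice, against 18.4, 19.42 and 19.2 CPM in ELS mice. The lack of overlap was narrow, as control mouse 2 and ELS mouse 2 had nearly the same value. The log2 fold change was -0.17 (95% interval from -0.36 to 0.019, unadjusted p of 0.0742 in the quasi-likelihood test). It was -0.23 without control mouse 2, where Mvk was the member with an unadjusted p under 0.05 (0.0247 in the quasi-likelihood test), and -0.096 without control mouse 3 and ELS mouse 1. Hmgcs1, the cytosolic HMG-CoA synthase, had 399 ± 39.2 CPM in control mice, against 395 ± 23.3 CPM in ELS mice (SD, 3 mice a group), a log2 fold change of -0.013. Mvd, Idi1 and Fdps, which make and join the isoprenoid units, had log2 fold changes of -0.11, -0.022 and -0.036, and Pmvk, the kinase that follows Mvk, had -0.035. Acat2, the thiolase that opens the route, was the member above 0, at 0.063 (0.023 without control mouse 2 and 0.12 without control mouse 3). A same-strand gene overlaps 26.7% of the Fdps exons, so reads there may not have been assigned, and its level is uncertain. The same holds for Tm7sf2 (12.1%, same strand). Genes of the opposite strand cover 18.3% of the Fdft1, 12.1% of the Hmgcs1 and 9.22% of the Idi1 exons, and the strand setting of the counting is not given in the sources used here.

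The 11 genes from squalene to cholesterol had log2 fold changes from -0.097 (Nsdhl) to 0.087 (Hsd17b7), with a median of -0.033 and 8 of the 11 below 0. Without control mouse 3, 5 of the 11 were below 0 and the median was 0.014, while without control mouse 2 it was -0.079. Hsd17b7, a sterol ketone reductase, had 35.28, 34.3 and 33.4 CPM in control mice, against 35.33, 36.7 and 37.3 CPM in ELS mice. Control mouse 1 and ELS mouse 1 had nearly the same value, and the 95% interval of the log2 fold change ran from -0.064 to 0.24. Fdft1, squalene synthase, had 107 ± 12.9 CPM in control mice, against 103 ± 1.37 CPM in ELS mice (SD, 3 mice a group). Sqle, the rate-controlling squalene epoxidase, had 76.3 ± 2.62 and 76.6 ± 2.60 CPM in control and ELS mice (SD, 3 mice a group). The intervals of their log2 fold changes included 0, and the means of Fdft1 differed by less than the SD of control mice but by more than that of ELS mice. The log2 fold changes of Lss, Cyp51, Tm7sf2, Msmo1, Ebp, Sc5d and Dhcr7, which carry lanosterol towards cholesterol, ran from -0.073 to 0.011. Each of the 11 intervals included 0 and lay within -0.3 and 0.3.

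For transport and removal, Cyp46a1, the neuronal hydroxylase that starts the export of brain cholesterol, had 177 ± 8.66 CPM in control mice, against 179 ± 8.52 CPM in ELS mice (SD, 3 mice a group). The efflux transporters Abca1 and Abcg1, targets of the oxysterol receptors LXR, had log2 fold changes of -0.018 and 0.0054. Stard4, a sterol carrier of the cytosol, had -0.091 (-0.041 without control mouse 1 and -0.12 without control mouse 2). None of these 4 had an interval that left out 0.

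In fatty acid synthesis, Acly, Acss2, Acaca and Fasn supply acetyl-CoA, carboxylate it and join it into palmitate. Their log2 fold changes were 0.0068, -0.082, -0.11 and -0.074. Acss2 was at -0.011 without ELS mouse 2 and -0.13 without ELS mouse 3, and Acaca at -0.051 without control mouse 1 and -0.16 without control mouse 3. Fasn, the synthase itself, had 259, 240 and 208 CPM in control mice, against 203, 226 and 243 CPM in ELS mice. The range within each group was wider than the difference between group means of 236 and 224 CPM. Scd1, the stearoyl-CoA desaturase, had 321, 346 and 364 CPM in control mice, against 309, 312 and 334 CPM in ELS mice, a log2 fold change of -0.11 (95% interval from -0.26 to 0.039). Control mouse 1 lay below ELS mouse 3. Its paralog Scd2 had a log2 fold change of -0.023. Reads shared by Scd1 and Scd2 would have been lost, as uniquely mapped reads were counted. Fads1 and Fads2, the desaturases of polyunsaturated fatty acids, had -0.029 and -0.019, and the elongases Elovl1 and Elovl5 had 0.0081 and -0.013.

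Per length of exon, Scd2 had the highest level, with 310 ± 5.09 CPM per kb in control mice and 305 ± 16.3 in ELS mice (SD, 3 mice a group). In control mice it was followed by Hmgcs1 (86.8 ± 8.53 CPM per kb), Scd1 (70.2 ± 4.35), Fads1 (64.6 ± 3.64) and Cyp46a1 (53.7 ± 2.63; SD, 3 mice). Scd1 and Fads1, neighbours in this order, had overlapping SD ranges, while Scd2 stood clear of Hmgcs1. The lowest were Lss (3.91 ± 0.159) and Abca1 (3.64 ± 0.251), whose SD ranges also overlapped, and the SD range of Elovl1 (4.02 ± 0.613) covered both means. Exon lengths were those of all exons of a gene, joined over its transcripts, in GENCODE M21, which may not be the annotation used for counting. This length can exceed that of a single mRNA, which lowers the level per kb (it was 10787 bases for Lss).

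**Figure D3:**
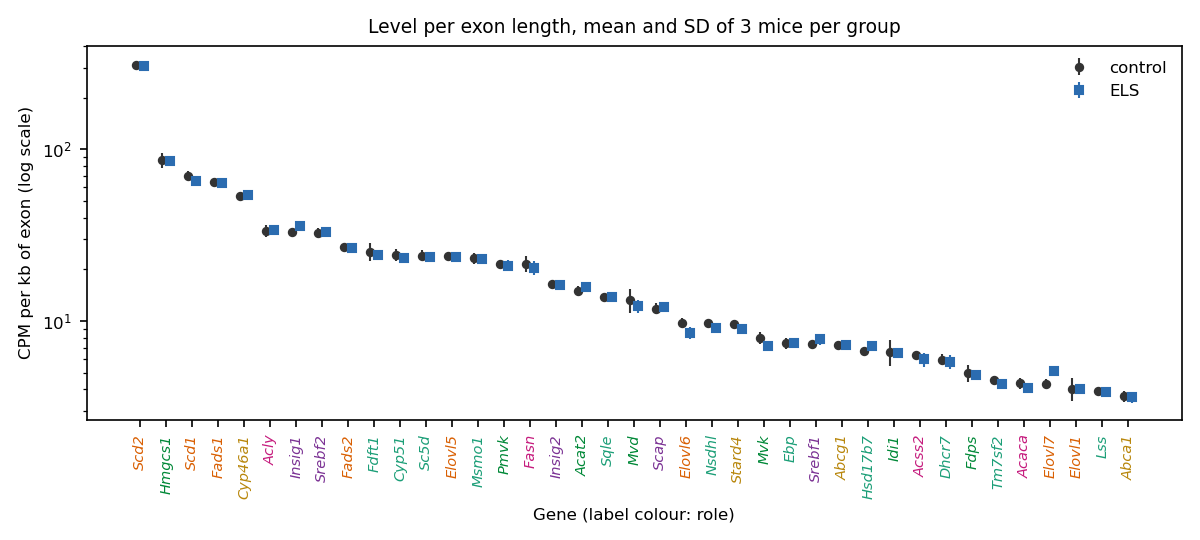
CPM per kb of exon (log axis) for the 39 genes, mean and SD of 3 control mice (circles) and 3 ELS mice (squares), ordered by the control mean. Levels fall from 310 for Scd2 to 3.64 for Abca1, and the means of Scd2 are 310 in control and 305 in ELS mice.

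The sterol enzymes also differed between mice of the same group. Of the 18 genes from Acat2 to Dhcr7 along the route, 12 were highest among control mice in control mouse 3, a place that mouse held in 38.9% of all genes tested. In 13 of the 18, control mouse 2 was the lowest, against 31.1% of all genes. Among ELS mice, ELS mouse 1 was the lowest in 11 of the 18, against 36.3%. The 18 genes summed to 1341, 1190 and 1338 CPM in control mice, against 1218, 1286 and 1294 CPM in ELS mice. The ELS sums thus lay between the control sums. For each mouse, the median over the 39 genes of its log2 deviation from the mean of the 6 mice ran from -0.045 (control mouse 2 and ELS mouse 1) to 0.041 (control mouse 1). The 39 genes together took from 0.510% to 0.538% of all counts of a mouse.

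**Figure D4:**
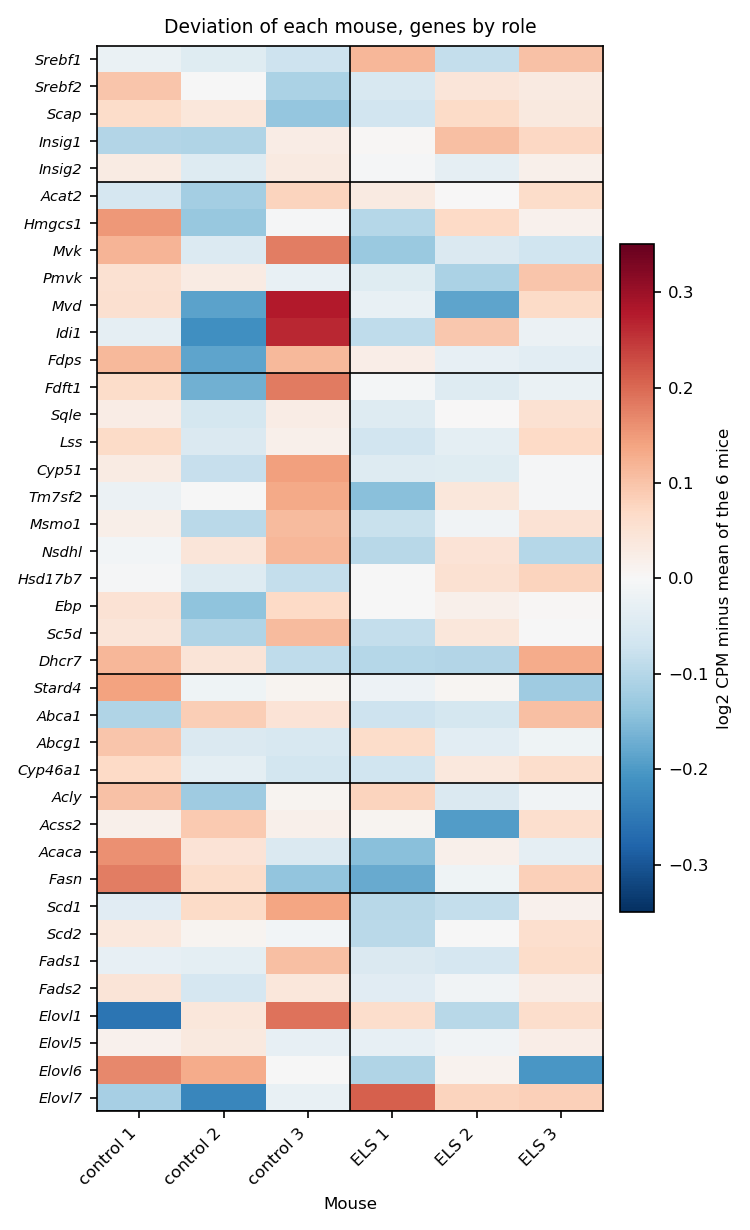
Log2 CPM of each mouse minus the mean of the 6 mice (colour, from blue for lower to red for higher) for the 39 genes in rows, with lines between roles and between groups. The sterol enzyme rows are mostly red in control mouse 3, the highest control in 12 of 18, and mostly blue in control mouse 2, the lowest control in 13 of 18.

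The cell mixture of the samples bears on these levels, because in bulk tissue fewer cells of a type and less RNA per cell cannot be told apart. The 6 neuronal markers summed to between 10891 and 12022 CPM. The 7 astrocyte markers summed to between 5561 and 5662 CPM in control mice, against between 4910 and 5703 CPM in ELS mice. Groups did not overlap in 2 of the 7 astrocyte markers, both lower in ELS mice, against 4.47% lower over all genes tested. They also did not overlap in 1 of the 9 oligodendrocyte and 1 of the 5 microglial markers, both higher, against 3.81% higher over all genes tested. Log2 fold changes were below 0 for 7 of the 9 oligodendrocyte, 5 of the 7 astrocyte and 5 of the 6 neuronal markers. For microglia, 4 of the 5 were above 0. No tested marker of the 8 lists was called (1 of the 3 choroid plexus and 5 of the 6 striatal markers were tested), and none found in the table was at 0 in all mice. Control mouse 3 had the highest oligodendrocyte sum (8526 CPM) and the highest sum of the 5 striatal markers found (335 CPM, against 183 and 200 in the other control mice). ELS mouse 1 was second in both (7594 and 310 CPM). ELS mouse 1, the lowest ELS mouse in 11 of the 18 sterol enzymes, also had the lowest astrocyte sum of the 6 mice (4910 CPM, against 5544 to 5703 in the others) and the lowest neuronal sum (10891 CPM, against 11458 to 12022). Among control mice these sums ran the other way. Control mouse 2, the lowest control in 13 of the 18, had the highest control astrocyte and neuronal sums (5662 and 12022 CPM). Control mouse 3, the highest control in 12 of the 18, had the lowest control sums (5561 and 11458 CPM). The part of tissue composition in these differences was not tested. Of the other lists, microglial markers summed to between 255 and 274 CPM, endothelial markers to between 104 and 136, red blood cell markers to between 42.9 and 71.6, and choroid plexus markers to between 1.95 and 3.15, with groups that overlapped in each.

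A second list held 39 further genes of sterol and fatty acid metabolism, such as the SREBP proteases Mbtps1 and Mbtps2, the LXR genes Nr1h2 and Nr1h3, and enzymes of elongation. Of these, 36 passed the filter and 0 were called, with a median log2 fold change of -0.0049. At an unadjusted p under 0.05, 0 were higher and 1 was lower (2.78%, against 2.34% of all genes tested). This gene was Acacb, the mitochondrial acetyl-CoA carboxylase that restrains fatty acid oxidation. It had 3.93, 4.11 and 3.70 CPM in control mice, against 2.61, 3.38 and 2.79 CPM in ELS mice, and the groups did not overlap. The log2 fold change was -0.42 (95% interval from -0.79 to -0.046), with an unadjusted p of 0.0306 and an adjusted p of 0.99998 in edgeR's quasi-likelihood test. Groups also did not overlap in Hacd2 (log2 fold change of -0.13) and Erlin1 (0.076), both named after their values were seen. With Acacb this made 1 gene higher and 2 lower, or 2.78% and 5.56%, against 3.81% and 4.47% of all genes tested.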

How the data were processed

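RNA-seq was done on the PFC of 3 control and 3 ELS mice. The deposited table holds whole-number read counts per gene symbol, which the authors made from trimmed paired-end reads aligned to mm10 with STAR and counted with HTSeq, keeping uniquely mapped reads (STAR 2.7.1a and HTSeq 0.9.1 in the submitters' processing notes). The study's methods name another STAR version and another library kit than the labels. The annotation release and the strand setting are not given in the sources used here.

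Groups were compared by edgeR 4.0.16 under R 4.3.3 (TMM factors, quasi-likelihood test, no covariates, two-sided) on genes that reached 1 CPM in each of the 3 mice of a group. P-values were Benjamini-Hochberg adjusted over all 13185 genes, with DEG thresholds of an adjusted p of 0.05 and an absolute log2 fold change of 0.3. SEs and 95% intervals were from the same fit. CPM are TMM-scaled, and errors are SDs over 3 mice. With 3 mice a group the smallest exact permutation p is 0.1, so that test was not used. DESeq2 1.42.0, limma 3.58.1 (voom), other scalings, other filters, the replicate number as a block, and fits with 1 mouse left out were alternatives. The tests were checked on simulated counts. Exons were from GENCODE M21 (GRCm38), which held 89.2% of the 22000 symbols.

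Every mouse's values were given for genes of the 39 with an unadjusted p under 0.05 or no overlap and for the 5 regulators, and the same p chose genes of the second list. The every-mouse values of Fasn and Scd1 were added after their values were seen. The members, lists and tests were chosen with earlier results of these data known. Neither list covers the whole pathway. Some other genes of it are not reported here.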

Additional observations from a re-analysis of the deposited data

How the results depend on the processing

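No gene of the 39, and no gene of the second list, was called under any alternative run, which were DESeq2, the edgeR likelihood ratio test, limma-voom, DESeq2 size factors, upper-quartile factors, no filter, a filter in every mouse, a replicate block and each mouse left out. The lowest adjusted p of a member was 0.196 (edgeR's quasi-likelihood test, Elovl6 without control mouse 3). With each mouse left out, the count of members at an unadjusted p under 0.05 ran from 0 to 4, against 2. It was 4 without control mouse 3 (Acaca, Elovl6, Elovl7 and Insig1), 0 without ELS mouse 1, and 1 without control mouse 1 (Elovl7), control mouse 2 (Mvk) or ELS mouse 3 (Elovl7). Over all genes 11.7% passed that p without control mouse 3, against 4.23% with it, and 29 genes were called, against 2. The count called over all genes was 18 with DESeq2 and 28 with the likelihood ratio test. The count of members whose groups did not overlap was 3 and ran from 4 to 11 with a mouse left out, as fewer mice overlap less by construction. Over all genes the share was 8.28% and ran from 14.8% to 29.5%. The 11 members (28.2%, against 14.8% of all genes) were without control mouse 2, and the 7 without control mouse 3 (17.9%) stood against 29.5%. The median log2 fold change of the members ran from -0.052 to -0.0071 with a mouse left out.

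The sign held for 14 members under each of these alternatives, and with a mouse left out their log2 fold changes ran as follows: Srebf1 0.0552 to 0.152, Insig1 0.0948 to 0.164, Acat2 0.0225 to 0.119, Mvk -0.231 to -0.122, Cyp51 -0.118 to -0.00706, Tm7sf2 -0.114 to -0.0218, Nsdhl -0.15 to -0.0647, Hsd17b7 0.0661 to 0.108, Stard4 -0.12 to -0.0414, Acss2 -0.134 to -0.0112, Acaca -0.159 to -0.0511, Scd1 -0.157 to -0.0701, Elovl6 -0.257 to -0.147 and Elovl7 0.195 to 0.294. The sign turned for 25 members with a mouse left out, with these ranges: Srebf2 -0.044 to 0.062, Scap -0.0399 to 0.0588, Insig2 -0.0348 to 0.00216, Hmgcs1 -0.0788 to 0.0629, Pmvk -0.0948 to 0.00758, Mvd -0.214 to 0.0124, Idi1 -0.125 to 0.114, Fdps -0.127 to 0.0133, Fdft1 -0.148 to 0.0208, Sqle -0.0218 to 0.0278, Lss -0.0627 to 0.00705, Msmo1 -0.079 to 0.0209, Ebp -0.052 to 0.0466, Sc5d -0.0901 to 0.0143, Dhcr7 -0.128 to 0.00122, Abca1 -0.078 to 0.0212, Abcg1 -0.0276 to 0.0577, Cyp46a1 -0.0105 to 0.0592, Acly -0.051 to 0.0621, Fasn -0.157 to 0.000649, Scd2 -0.0604 to 0.0147, Fads1 -0.0698 to 0.0174, Fads2 -0.0515 to 4.94e-05, Elovl1 -0.107 to 0.111 and Elovl5 -0.0315 to 0.00124. Insig2 also turned with upper-quartile factors, to 0.00059, a scaling that moved the median of all genes from -0.0046 to 0.0065.

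An alternative chosen after seeing the data left out control mouse 3 and ELS mouse 1, the mice with the highest striatal marker sums. It called 0 members, gave 3 at an unadjusted p under 0.05 (7.69%, against 8.74% of all genes in that fit) and moved the median to 0.0086. Over all genes it called 27.

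The correlations of deviations between same-numbered mice were -0.164, 0.258 and -0.0355. Only control mouse 2 correlated best with the ELS mouse of its own number. With 3 mice a group, these values cannot decide whether mice of the same number were paired. With the replicate block the median was -0.022, 2 members had an unadjusted p under 0.05, and 7 genes were called over all.

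With 3 mice a group the median 95% interval reached 0.161 to each side of a member's log2 fold change, before any correction for the number of genes. Intervals cover the spread between these mice. Housing and filter cap cannot be told apart.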
